A study of Mus musculus with 8 samples.

Results

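A set of 10 transcripts had many reads, or a strong rise over testis, in RNA recovered with an RNF17 antibody. That RNA came from testes homozygous for the altered Rnf17 gene, and levels are described here across all 8 libraries. The 10 genes, of 19276 entries in the gene table, were Nasp, Ppig, 4930578N16Rik, C130060K24Rik, Chgb, Arf5, Gm5415, Gm9839, 4930444G20Rik and AF366264. They were selected on values of the homozygous libraries, for many reads in the homozygous immunoprecipitate (IP) or a strong rise there over the homozygous testis. Values of those libraries therefore describe the choice and are given with no test. All 10 passed the filter on low counts in each comparison.

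The study sequenced RNA from mouse testis and from RNF17 IPs, with 2 libraries in each of 4 groups. The groups were IP from homozygous RNF17 mice (hom IP), IP from heterozygous RNF17 mice (het IP), testis of homozygous mice (hom testis) and testis of heterozygous mice (het testis). All mice were C57BL/6 and 6 weeks old. The IPs used the antibody RNF17 1774 and protein A beads, and the testis libraries, made with no antibody, served as the lysate against which each IP was set. The labels do not describe the allele, every mouse carried at least 1 altered copy, and an IP from wild-type testis or without antibody was not analysed here.

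RNF17 belongs to the Tudor family of germ cell proteins, which recognise methylated arginines on the PIWI proteins that carry piRNAs, and male mice that lack it stop making sperm at the round spermatid stage. An RNA immunoprecipitation recovers a protein with an antibody on beads, together with the RNA attached to it and with RNA that comes down for any other reason. An IP from animals whose target is disrupted is the usual measure of the second kind of RNA. The members encode a histone chaperone (Nasp), a nuclear cyclophilin with an arginine and serine rich tail (Ppig), a coiled-coil protein of the sperm axoneme (4930578N16Rik), a receptor-like protein (C130060K24Rik), a secretory granule protein (Chgb), a small GTPase of membrane traffic (Arf5) and 4 proteins related to the Senp peptidases, which remove SUMO from other proteins.

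Gene reads per library lay between 5661754 and 50575649, with the deepest library in the hom testis, and 15489 to 17723 entries were detected in a library. Rnf17 RNA was lower in both homozygous groups, with 214 and 393 CPM (read counts divided by TMM-scaled library size) in hom IP against 1263 and 1189 CPM in het IP, and 50.3 and 97.6 CPM in hom testis against 507 and 551 CPM in het testis. It was not at 0 in any library, and the counts do not show whether any RNF17 protein remained. Each of the 8 markers of spermatocytes and round spermatids was detected in every group, with sums of 3218 to 3542 CPM in hom IP, 4327 to 4387 CPM in het IP, 1377 to 2945 CPM in hom testis and 4330 to 12693 CPM in het testis. Tnp1, a spermatid protein that replaces histones, stood at 41.0 and 17.8 CPM in hom testis against 1179 and 7789 CPM in het testis. In whole testis, fewer cells of a type and less RNA per cell cannot be told apart.

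The 4 Senp-like genes were near copies of each other, so a read from one can match another. A stretch near the start of each coding sequence is shown as an example. RefSeq gives Gm5415 the other name Senp14, Gm9839 the name Senp15 and AF366264 the name Susp4, while 4930444G20Rik was placed with them by its sequence. Coding sequences of Gm5415 and Gm9839 were identical at 98.5% of aligned bases, those of 4930444G20Rik and AF366264 at 95.8%, and the other pairs at 91.3% to 91.7%. The 60 coding bases shown are from GENCODE M21 (GRCm38), 5′ to 3′, begin at coding base 2 of Gm5415 and Gm9839 and at base 26 of 4930444G20Rik and AF366264, and have capitals where a base differs from Gm5415.
Gm5415: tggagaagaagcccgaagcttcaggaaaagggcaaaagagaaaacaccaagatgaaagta
Gm9839: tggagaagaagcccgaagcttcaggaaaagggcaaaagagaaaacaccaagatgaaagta
4930444G20Rik: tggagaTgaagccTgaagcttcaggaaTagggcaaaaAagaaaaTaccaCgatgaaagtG
AF366264: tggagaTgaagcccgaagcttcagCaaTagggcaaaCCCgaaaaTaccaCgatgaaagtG
Gm9839 had 0 differences from Gm5415 in this window, 4930444G20Rik had 7 and AF366264 had 9. Of all stretches of 50 bases in the transcript, 61.2% were also found in other annotated genes for Gm9839, 34.8% for 4930444G20Rik, 24.3% for Gm5415 and 19.3% for AF366264. These shares depend on transcript length. The shared stretches numbered 849 of 1388 for Gm9839 and 866 of 3560 for Gm5415. They numbered 600 of 1724 for 4930444G20Rik and 600 of 3108 for AF366264. How the authors counted reads with several matches is not given in the sources used here, so the level of each single copy is uncertain. Gm5415 and Gm9839, on chromosome 1, lie on the opposite strand within an intron of Khdrbs2, whose own level was 2.08 to 4.17 CPM in hom IP, 4.28 to 14.6 CPM in het IP, 2.77 to 6.09 CPM in hom testis and 1.76 to 19.5 CPM in het testis. 4930444G20Rik is on chromosome 10 and AF366264 on chromosome 8.

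Gm5415 had 304 and 313 CPM in hom IP, 382 and 615 CPM in het IP, 5.08 and 6.16 CPM in hom testis, and 10.3 and 10.1 CPM in het testis. Gm9839 had 148 and 178 CPM in hom IP, 161 and 331 CPM in het IP, 4.87 and 4.02 CPM in hom testis, and 11.2 and 6.43 CPM in het testis. For both genes each IP library was far above every testis library, and het IP lay above hom IP without overlap for Gm5415 and overlapped it for Gm9839. 4930444G20Rik had 372 and 356 CPM in hom IP, 369 and 632 CPM in het IP, 12.4 and 7.26 CPM in hom testis, and 43.8 and 66.5 CPM in het testis. AF366264 had 423 and 323 CPM in hom IP, 765 and 1773 CPM in het IP, 12.6 and 11.9 CPM in hom testis, and 67.7 and 297 CPM in het testis. Per kilobase of transcript these 2 genes had more RNA in het testis, with means of 31.1 and 57.8 CPM per kilobase, than Gm5415 with 2.83 and Gm9839 with 6.12 CPM per kilobase. Their het IP stood above het testis without overlap.

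**Figure D1:**
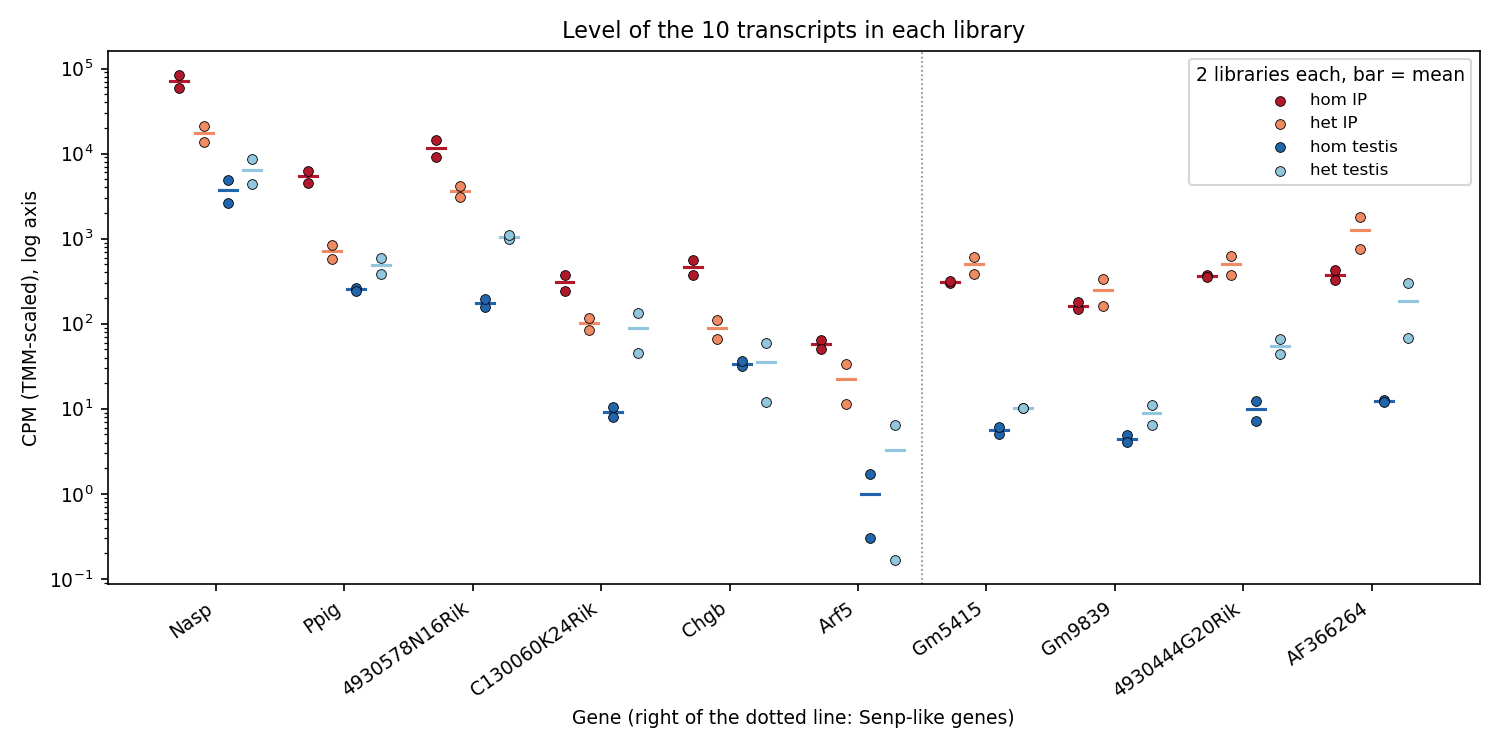
Each point is the CPM of 1 library on a log axis, for the 10 genes, with groups from left to right hom IP, het IP, hom testis and het testis (2 libraries each) and a bar at the mean. The 6 genes left of the dotted line are highest in hom IP, and the 4 Senp-like genes right of it have hom IP means below their het IP means but above both testis groups.

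Nasp, whose protein carries histones and was first found as an autoantigen of sperm, was the most read gene in hom IP and in het IP. It had 58990.1 and 83911 CPM in hom IP, 13549 and 21041 CPM in het IP, 2612 and 4894 CPM in hom testis, and 4432 and 8536 CPM in het testis. Every hom IP value lay above every het IP value, and every het IP value above every testis value. Nasp alone took 5.51% (95% Wilson interval 5.49% to 5.53%) and 6.85% (6.83% to 6.87%) of the gene reads of the hom IP libraries, and 1.57% (1.56% to 1.58%) and 2.27% (2.25% to 2.28%) of those of the het IP libraries. In the testis libraries its share was 0.354% and 0.517% in hom testis and 0.433% and 0.635% in het testis, where Nasp already ranked 5th by mean CPM in either genotype. These intervals cover counting error only. Only 1.34% of its 50-base stretches occur in other genes.

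Together the 10 members took 6.97% and 8.71% of gene reads in hom IP, 2.21% and 3.20% in het IP, 0.422% and 0.571% in hom testis, and 0.605% and 0.790% in het testis. Shares of one library are not independent of each other, so a gene with this many reads lowers the share of the rest.

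Ppig and 4930578N16Rik are neighbours on chromosome 2, on opposite strands, with 0 genes between them. Ppig had 4526 and 6279 CPM in hom IP, 584 and 836 CPM in het IP, 263 and 243 CPM in hom testis, and 585 and 386 CPM in het testis. Its het IP and het testis values overlapped, hom IP lay above them and hom testis below them. 4930578N16Rik, which RefSeq calls Ccdc173, had 9193 and 14333 CPM in hom IP, 3128 and 4209.8 CPM in het IP, 158 and 195 CPM in hom testis, and 983 and 1117 CPM in het testis. It ranked 2nd by mean CPM in both IPs, against 1094th in hom testis and 133rd in het testis, and no 2 of its groups overlapped. None of its 50-base stretches was found in another gene (0%), and 5.54% of those of Ppig were. The gene span of each overlaps a pseudogene on the opposite strand, Gm13622 for Ppig and Gm13623 for 4930578N16Rik. Neither pseudogene shared a 50-base stretch with the transcript of the gene it overlaps. Whether the counting used strand is not given in the sources used here.

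C130060K24Rik, on chromosome 6, is Qrfprl in RefSeq and resembles Qrfpr, the receptor of the neuropeptide QRFP. It had 239.5 and 376 CPM in hom IP, 84.8 and 117 CPM in het IP, 10.4 and 8.01 CPM in hom testis, and 45.0 and 134 CPM in het testis. The het IP and het testis values overlapped, while hom IP lay above all of them. Qrfpr itself reached at most 1.69 CPM in a library, and 0.31% of 50-base stretches of C130060K24Rik occur in it. The gene span of C130060K24Rik overlaps the pseudogenes Gm18716 and Gm18913 on the same strand, and neither shared a 50-base stretch with its transcript.

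Chgb on chromosome 2 encodes chromogranin B, best known from the granules of endocrine and nerve cells. It had 373 and 564 CPM in hom IP, 66.3 and 111 CPM in het IP, 31.8 and 35.9 CPM in hom testis, and 12.0 and 59.0 CPM in het testis. The 6 markers of neuroendocrine cells summed to 6.51 to 7.19 CPM in hom IP, 7.29 to 7.77 CPM in het IP, 4.28 to 6.30 CPM in hom testis and 2.33 to 5.62 CPM in het testis, and 3, 1, 2 and 2 of them were at 0 in those groups in that order. The summed level of that list was below Chgb in every library, and was no higher in hom IP than in het IP.

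Arf5 on chromosome 6 had few reads in testis, with 3 and 91 reads in hom testis and 1 and 95 reads in het testis, against 344 and 304 reads in hom IP and 122 and 210 reads in het IP. In CPM these were 65.1 and 50.7 in hom IP, 11.4 and 33.3 in het IP, 0.305 and 1.70 in hom testis, and 0.167 and 6.43 in het testis. In both genotypes the testis library of replicate 2 had more Arf5 than that of replicate 1, and the hom testis values lay within the range of the het testis values. The gene span of Arf5 overlaps an exon of Gcc1 on the opposite strand. None of the 50-base stretches of the Arf5 transcript was found in another gene (0%). Gcc1 had 11.4 and 14.2 CPM in hom IP, 27.6 and 28.8 CPM in het IP, 8.63 and 14.0 CPM in hom testis, and 7.17 and 30.3 CPM in het testis. Gcc1 also differed between the testis libraries by replicate, and was lower in hom IP than in het IP, unlike Arf5.

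Levels between genes were compared per kilobase of GENCODE transcript. In hom IP the mean order was Nasp with 28353 CPM per kilobase, 4930578N16Rik with 6379, Ppig with 865, 4930444G20Rik with 205, Chgb with 171, AF366264 with 118, Gm9839 with 113, C130060K24Rik with 104, Gm5415 with 85.5 and Arf5 with 51.9 CPM per kilobase. Libraries of the first 3 did not overlap with any below them, 4930444G20Rik and Chgb overlapped, each of the next 4 overlapped its neighbour in the order, and Arf5 lay below them. In het IP the order on the same scale began with Nasp at 6863, 4930578N16Rik at 1989.7 and AF366264 at 402 CPM per kilobase. Lengths of the models the authors counted on may differ from these.

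Set against hom testis, the contrast that chose them, all 10 members were higher in hom IP with no overlap between libraries, where 28.7% of 13334 genes were. Their edgeR log2 ratios had a median of 5.13 and a range of 3.78 to 6.05, against a median of -0.01 over all genes. That of Arf5 was 5.63, and 7.41 without hom testis replicate 2. By the ratio of mean CPM, 7 of the first 10 and 10 of the first 20 entries of 8324 were members. The lowest was Chgb at rank 18 with a ratio of 13.7, 8 entries that are not members ranked above it, and the entry at rank 19, a piRNA locus, had a ratio of 13.1. Ift74, a protein of intraflagellar transport and no member, was 3rd by mean CPM in hom IP and 5th by this ratio. It had a mean of 10189 CPM in hom IP, 2582 CPM in het IP, 304 CPM in hom testis and 912 CPM in het testis.

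**Figure D2:**
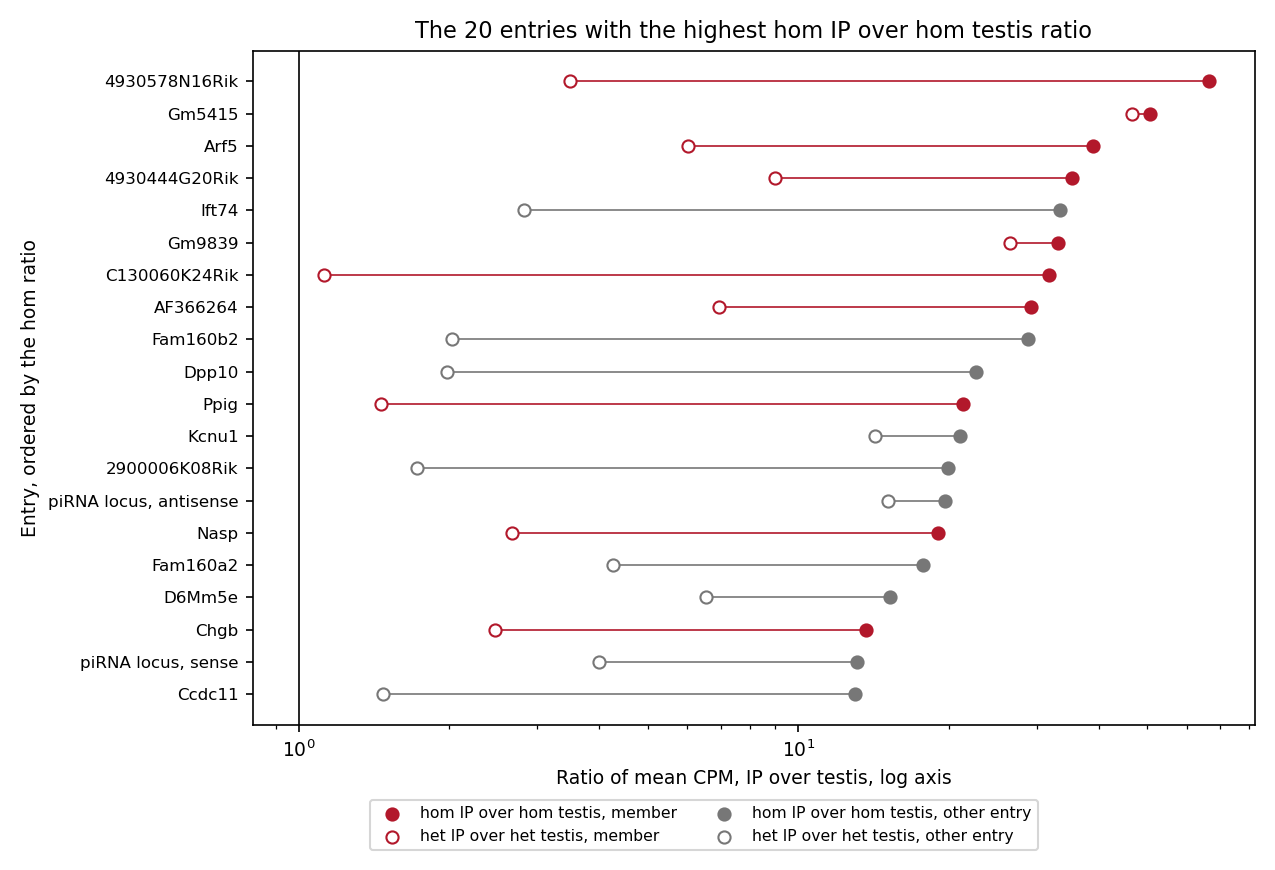
Rows are the 20 entries with the highest ratio of mean CPM in hom IP over hom testis, with filled points for that ratio and open points for het IP over het testis, on a log axis, members in red and other entries in grey. Gm5415 and Gm9839 have both points close together, with het ratios of 46.6 and 26.5, and C130060K24Rik has the widest gap, with ratios of 31.8 and 1.12.

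The heterozygous libraries were not used in the choice, and het IP over het testis was the 1 comparison tested. All 10 members had log2 ratios above 0 in it, with a median of 2.29 against -0.04 over all 13562 genes, and 8 of 10 were higher with no overlap, where 28.1% of all genes were. The quasi-likelihood test of edgeR called none of the members at an adjusted p under 0.05, and no other gene either (0 of 13562 genes, 0%), although 6 members and 2460 genes had an unadjusted p under 0.05. DESeq2 called 5 members higher, which were 4930578N16Rik and the 4 Senp-like genes, where 2.01% of 12170 genes were called higher. Leaving out het testis replicate 1, edgeR called 8 members, all higher, where 19.3% of 14439 genes were called higher. Leaving out het testis replicate 2, it called 9 members, all higher, where 26.9% of 13892 genes were. In both, the lone testis library was assumed to vary like the IP libraries.

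Among the members, the Senp-like genes had the highest ratios in the main fit of this comparison, with Arf5 next at 2.75. That order was not stable. Without het testis replicate 2, Arf5 stood at 6.85, above all 4 Senp-like genes, of which Gm5415 was highest at 5.54. Gm5415 was 48.8-fold higher in het IP than in het testis, with an edgeR log2 ratio of 5.63 (SE 0.46, adjusted p = 0.206, higher in 2 of 2 IP libraries) and a DESeq2 adjusted p of 1.54e-19. Gm9839 had a log2 ratio of 4.81 (SE 0.62, edgeR adjusted p = 0.206, DESeq2 adjusted p = 5.67e-11). All 4 were higher with no overlap, where 28.1% of all genes were, with a median of 4.01. 4930444G20Rik had a log2 ratio of 3.21 (SE 0.44, edgeR adjusted p = 0.206, DESeq2 adjusted p = 2.97e-05) and AF366264 one of 2.86 (SE 0.80, edgeR adjusted p = 0.225, DESeq2 adjusted p = 0.00741). The ratio of AF366264 was 2.12 without het testis replicate 1, 4.17 without het testis replicate 2 and 2.13 without het IP replicate 2, and that of Gm9839 was 4.20 without het IP replicate 2. Because reads may be divided among the copies, their reads were also summed, a choice made after the data were seen. Each of the 4 shared 50-base stretches with 18 other annotated genes, most of them not members. The sum may therefore still miss reads, or hold reads that came from other genes. The sum was 1246 and 1169.9 CPM in hom IP, 1677 and 3351 CPM in het IP, 34.9 and 29.4 CPM in hom testis, and 133 and 380.1 CPM in het testis. Its log2 ratio of het IP over het testis was 3.35 (SE 0.64, edgeR adjusted p = 0.207), and DESeq2 gave 3.25 (adjusted p = 2.34e-04). It was 2.75 without het testis replicate 1 and 4.19 without het testis replicate 2.

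The 6 other members had a median log2 ratio of 1.42 in het IP over het testis, and 4 of them were higher with no overlap, where 28.1% of all genes were. 4930578N16Rik stood at 1.83 (SE 0.33, edgeR adjusted p = 0.206, DESeq2 adjusted p = 0.0258), and Nasp at 1.46 (SE 0.42, edgeR adjusted p = 0.225, DESeq2 adjusted p = 0.138). Arf5 stood at 2.75 (SE 1.27, edgeR adjusted p = 0.313, DESeq2 adjusted p = 0.0746), a value that ran from 1.78 without het testis replicate 1 to 6.85 without het testis replicate 2. Chgb stood at 1.38 (SE 0.76, edgeR adjusted p = 0.37), at 0.60 without het testis replicate 1 and at 2.82 without het testis replicate 2. Ppig and C130060K24Rik, the 2 members whose het IP and het testis libraries overlapped, had log2 ratios of 0.55 (SE 0.41, edgeR adjusted p = 0.489) and 0.23 (SE 0.56, edgeR adjusted p = 0.847). That of C130060K24Rik was -0.39 without het testis replicate 1 and 1.11 without het testis replicate 2, so its direction rests on single libraries.

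**Figure D3:**
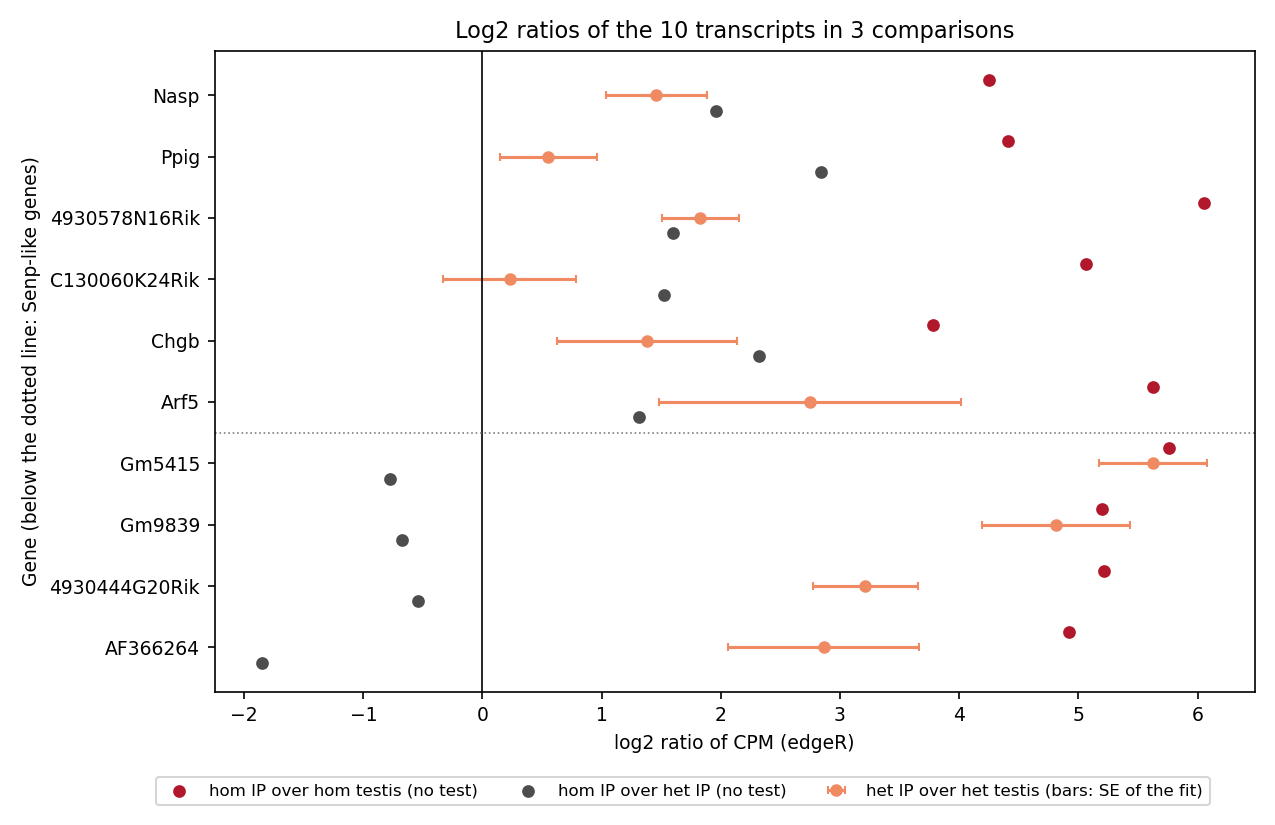
The edgeR log2 ratio of each member is plotted for hom IP over hom testis, het IP over het testis (with its SE) and hom IP over het IP. The first ranges from 3.78 to 6.05 and the second from 0.23 to 5.63, and the third is above 0 for the 6 genes above the dotted line and below 0 for the 4 Senp-like genes.

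Between the IPs, the members split along their sequence relation. All 6 other members were higher in hom IP than in het IP with no overlap, where 36.1% of 13427 genes were, with a median log2 ratio of 1.78 and a range of 1.32 (Arf5) to 2.84 (Ppig). The value of Arf5 was 0.71 without het IP replicate 1 and 2.27 without het IP replicate 2. The 4 Senp-like genes were all below 0, with a median of -0.73, and 2 of them, Gm5415 at -0.78 and AF366264 at -1.85, were lower with no overlap, where 32.2% of genes were. Gm9839 stood at -0.68 and 4930444G20Rik at -0.54, and their IP libraries overlapped. Without het IP replicate 2, AF366264 stood at -1.11 and Gm9839 at -0.055. No test is given, since hom IP values chose the members and this ratio shares those values. In fold, mean CPM in hom IP was 7.61 times that in het IP for Ppig, 5.30 times for Chgb, 4.13 times for Nasp, 3.21 times for 4930578N16Rik, 3.05 times for C130060K24Rik and 2.59 times for Arf5. For the Senp-like genes the same ratio was between 0.294 for AF366264 and 0.727 for 4930444G20Rik.

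The testis levels of the members also differed by genotype, which bears on every ratio over testis. In hom testis over het testis 7 of 10 members were lower with no overlap, where 19.7% of 14332 genes were, and 0 were higher, where 20.3% of genes were. The median log2 ratio was -1.33, against 0.04 over all genes. The lowest were AF366264 at -3.90, C130060K24Rik at -3.30, 4930578N16Rik at -2.58 and 4930444G20Rik at -2.50. Single libraries moved the first 2 of these, to -2.46 for AF366264 and -2.30 for C130060K24Rik without het testis replicate 2, and to -4.63 and -3.90 without het testis replicate 1. Hom testis was part of the choice, so these values are a description.

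In the authors' deposited table of testis differences 582 entries are listed as lower in hom testis at an adjusted p under 0.05, which is 3.02% of the gene table, and 4 of the 10 members are among them. In the authors' deposited table AF366264 has a log2 fold change of -2.69 (adjusted p = 1.18e-04) and C130060K24Rik one of -2.40 (adjusted p = 6.37e-04). For 4930578N16Rik the authors' deposited table gives -2.04 (adjusted p = 0.0019) and for 4930444G20Rik -1.92 (adjusted p = 0.00804), beside -2.17 for Rnf17. The authors' mean signals are 2706 in het and 179 in hom testis for AF366264, and 1327 and 134 for C130060K24Rik. The listed fold changes are smaller in size than the ratios of those means. They are therefore not on the same scale as the edgeR ratios above. For Chgb the direction was not stable. Its log2 ratio of hom testis over het testis was -0.08, but 0.54 with library totals and 1.498 without het testis replicate 2, and that of Arf5 turned from -1.67 to 2.67 without the same library.

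The hom ratios over testis were set beside the het ratios for each member. Gm5415 and Gm9839 had similar IP over testis ratios of mean CPM in both genotypes, 54.9 in hom and 48.8 in het mice for Gm5415, and 36.6 in hom and 28.0 in het mice for Gm9839. The levels of C130060K24Rik gave ratios of 33.5 in hom and 1.13 in het mice, with 3.05 times the level in hom IP relative to het IP and 0.102 times the level in hom testis relative to het testis. Ppig had ratios of 21.4 in hom and 1.46 in het mice, with 7.61 times the level in hom IP relative to het IP and 0.521 times the level in hom testis relative to het testis. The difference between the genotypes in these ratios was not tested, since hom values chose the genes.

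Nasp, Ppig, 4930578N16Rik and Chgb have coding sequences rich in the purines A and G, a feature that the choice did not use. A+G made up 66.0% of the coding sequence of 4930578N16Rik, 65.8% of that of Ppig, 64.4% of that of Chgb and 63.2% of that of Nasp, against a median of 52.5% and a 95th percentile of 59.3% over 13246 tested genes with a coding sequence. The Senp-like genes had 58.9% to 59.3%, just under that percentile, and Arf5 with 52.8% and C130060K24Rik with 49.8% did not share the feature. The sequences below are, for each gene, the 60 coding bases with the most A and G, from GENCODE M21 (GRCm38), 5′ to 3′, with capitals for C and T. Arf5, whose best window had the least A and G among the members, is shown for contrast.
Nasp: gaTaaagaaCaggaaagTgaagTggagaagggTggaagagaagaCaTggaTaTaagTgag
Ppig: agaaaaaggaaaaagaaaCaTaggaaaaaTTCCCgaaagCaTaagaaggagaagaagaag
4930578N16Rik: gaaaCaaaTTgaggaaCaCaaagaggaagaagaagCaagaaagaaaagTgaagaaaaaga
Chgb: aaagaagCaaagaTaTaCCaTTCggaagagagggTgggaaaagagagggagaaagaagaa
Arf5: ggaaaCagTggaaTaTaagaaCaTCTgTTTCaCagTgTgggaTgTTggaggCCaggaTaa
A and G made up 83.3% of the window in Nasp, 85.0% in Ppig, 88.3% in 4930578N16Rik, 85.0% in Chgb and 65.0% in Arf5. The windows begin at coding base 508 of Nasp, 676 of Ppig, 639 of 4930578N16Rik, 442 of Chgb and 159 of Arf5. Among all genes, these best windows rank at percentile 91.3, 93.6, 96.5, 93.6 and 6.61 in the same order, so a window of this kind is less unusual than the composition of the whole coding sequence. A longer coding sequence offers more windows, and that of Arf5 has 540 bases against 1641 to 2319 in the 4 rich genes. C130060K24Rik, with less A+G than Arf5, had a best window of 73.3% at percentile 49.5. The Senp-like genes had 78.3% to 81.7%, at percentiles 77.0 to 87.6.

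Over genes that are not members, the A+G share went with the IP ratios in different ways in the 2 genotypes. The 650 genes above the 95th percentile had a median log2 ratio of 0.52 in hom IP over het IP, against -0.05 for the 12273 others. In hom IP over hom testis the medians were 0.37 for 644 genes above it and -0.03 for the others, and in het IP over het testis -0.28 for 657 genes above it and -0.04 for the others. Spearman's rho between A+G share and log2 ratio was 0.216 for hom IP over het IP, 0.00953 for hom IP over hom testis and -0.233 for het IP over het testis, across genes that share the same libraries and are not independent. The GC share of the coding sequence gave rho of -0.0709, 0.229 and 0.451 in the same order, so the relation to base composition differed by ratio and by measure. In hom IP over hom testis, with genes in 20 bins by A+G share, the medians did not move in 1 direction. They stood at 0.19 in the bin with the least A+G, -0.12 in bin 10 and 0.37 in the bin with the most. All 6 members other than the Senp-like genes, Arf5 and C130060K24Rik included, lay above the bin medians of the other genes in hom IP over het IP, and the Senp-like genes lay below them. Hom IP values chose all of these genes. The part of base composition in the members' levels was not tested.

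**Figure D4:**
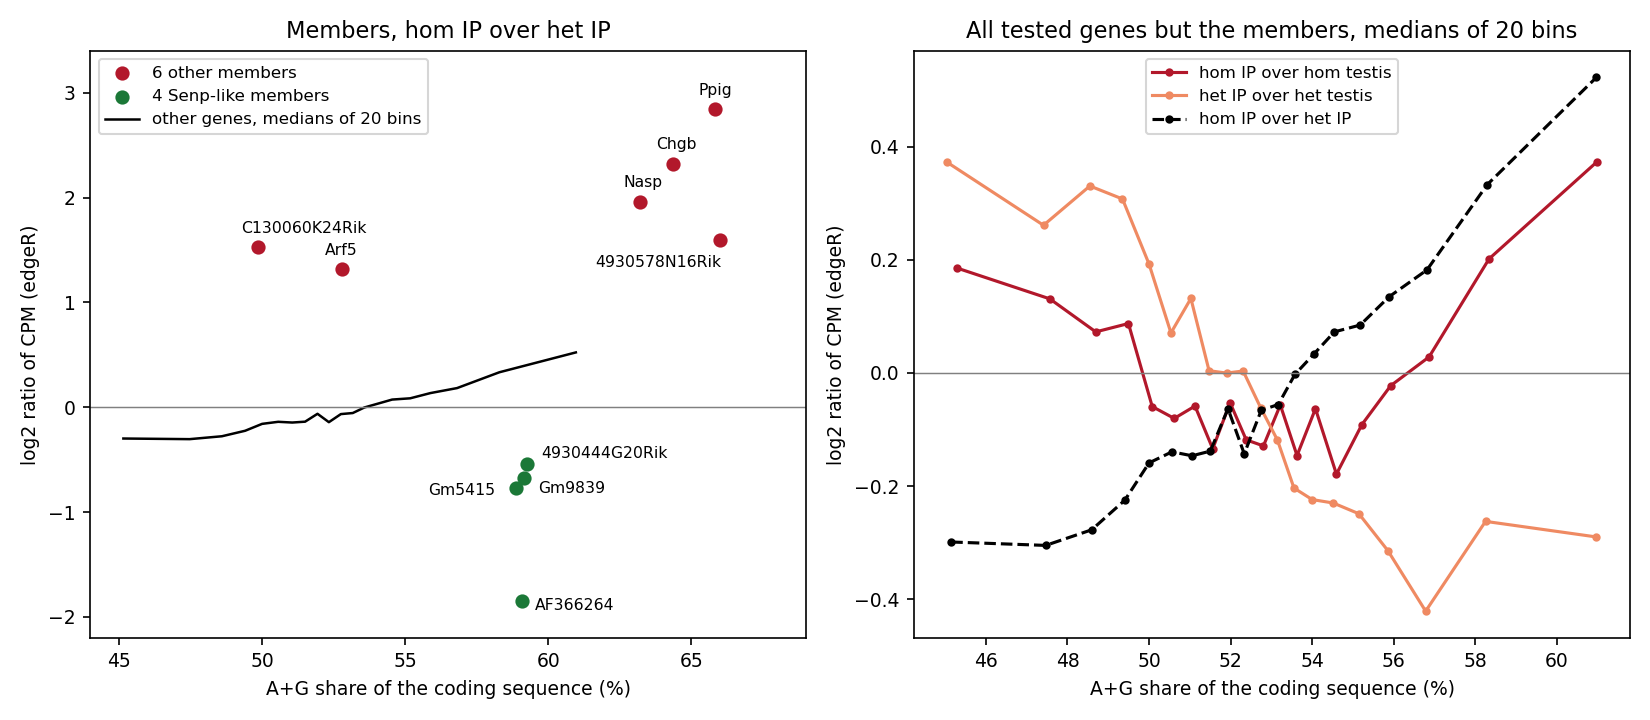
Left, the log2 ratio of hom IP over het IP of each member against the A+G share of its coding sequence, with a line through the medians of 20 bins of the other genes. Right, the bin medians alone for 3 comparisons, where the bin with the most A+G stands at 0.37 in hom IP over hom testis, -0.29 in het IP over het testis and 0.52 in hom IP over het IP.

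Lists of genes related to the members by function were measured in the same libraries. In het IP over het testis the median log2 ratio was 0.26 for 15 cyclophilins other than Ppig, 0.15 for 23 histone chaperones other than Nasp, -0.64 for 7 granins and their processing enzymes, -0.12 for 19 genes of the ARF family and -0.20 for 17 SR proteins, against -0.04 over all genes. DESeq2, which called 601 of 12170 genes higher or lower in this comparison, called none in these 5 lists. With lists this short and that few calls, this does not set the lists apart from other genes. EdgeR called no gene at all, so its lack of calls here says nothing about the lists. In hom IP over het IP the medians were 0.24, 0.23, 0.11, 0.22 and 0.21 in the same order, against -0.03 over all genes. That comparison held 14 of the cyclophilins and 5 of the granins and their processing enzymes. The most read gene of each list had a log2 ratio of het IP over het testis of -0.77 for Nktr, which like Ppig is a cyclophilin with an SR tail, -0.64 for Ncl, -1.43 for Cpe, -0.69 for Arl3 and -0.85 for Srrm2, and none of these 5 ratios passed the test of either tool.

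Markers of other cells gave no call in edgeR, which called no gene at all in this comparison. DESeq2 called 1, the spermatid gene Tnp1, lower in het IP than in het testis (log2 ratio -2.46, SE 0.84, DESeq2 adjusted p = 0.0172, edgeR adjusted p = 0.251). Median log2 ratios of het IP over het testis were -0.23 for 8 markers of spermatocytes and round spermatids, -0.84 for 4 of Sertoli cells, -0.50 for 5 of Leydig cells, -0.40 for 4 of spermatogonia and 2.45 for 2 of epididymis, and 1.05 and 0.93 for the 1 tested marker each of blood, Alas2, and of neuroendocrine cells, Chga. The summed epididymis markers were 2.34 to 2.46 CPM in hom IP, 4.91 to 6.55 CPM in het IP, 2.94 to 50.6 CPM in hom testis and 3.17 to 6.77 CPM in het testis, with Crisp1 at 46.9 CPM in 1 hom testis library. The most read marker of Sertoli cells, Clu, had a log2 ratio of 0.27, that of Leydig cells, Cyp17a1, 0.60, and that of spermatogonia, Kit, -0.17. Crisp1, the most read epididymis marker, had 2.43 and 2.85 CPM in het IP against 0 and 0.0677 CPM in het testis.

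The genes whose log2 CPM over the 8 libraries followed the members' median most closely, among 8846 genes with a mean of at least 10 CPM, were Ccdc34 (Pearson r = 0.989), Eif5b (0.982), Rsrc2 (0.974), Gm216 (0.971) and Naa20 (0.970). The r is over 8 libraries and is a description, since the 4 groups set most of it. In all 5 the group means fell in the order hom IP, het IP, het testis and hom testis. Eif5b, a translation initiation factor, had means of 2510.0 CPM in hom IP, 1186 CPM in het IP, 259 CPM in hom testis and 575 CPM in het testis. Ccdc34, a coiled-coil protein, had 159.7, 101, 37.4 and 62.8 CPM in those groups in that order.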

How the data were processed

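Mouse testis RNA and RNA from RNF17 immunoprecipitates were sequenced in 8 libraries. The authors deposited whole-number read counts per gene. STAR, DESeq and build mm9 are named, without versions or roles, per the submitters' processing notes, and how reads were counted and whether by strand is not given in the sources used here. Testis columns repeated between tables (4) were identical. The authors' deposited table of testis differences has a normalised mean signal for each genotype, a log2 fold change, its standard error (a score) and p-values, per the file headers. Transposon tables were not used.

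Groups came from the sample titles. The members and lists were chosen with earlier results of these data known, so no list stands as independent evidence. Named were the 10 members, Rnf17, the first 3 entries by mean CPM and by ratio in hom IP, the 5 genes most like the members' median, and from each list the genes called, or else the most read one.

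The main test was the edgeR 4.0.16 quasi-likelihood test (limma 3.58.1, R 4.3.3) with TMM scaling and filterByExpr, on the 4 libraries compared, with Benjamini-Hochberg adjustment over all genes and a threshold of 0.05. DESeq2 1.42.0, other scalings, no filter, a replicate block and leaving out each library were alternatives. The steps were tested on simulated data. CPM used TMM sizes over all 8 libraries. Ratios used for ranks had 0.5 CPM added to each mean and were limited to entries with at least 10 CPM in the IP. No label says that libraries of one group are separate animals, so a p-value here covers only the spread between libraries.

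The reference was GRCm38, another build than the counts, so no coordinates are printed. Sequences, lengths and base composition came from GENCODE M21, where 97.7% of 13562 tested genes had a coding sequence (for Gm9839, a transcript that is 1 open frame), and were aligned with MAFFT 7.526. Other gene names are from RefSeq.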

Additional observations from a re-analysis of the deposited data

How the results depend on the processing

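In het IP over het testis, edgeR called 0 genes and 0 members, as it did with RLE size factors and with library totals. The alternatives that differed were DESeq2 with 601 genes and 5 members, no filter on low counts with 1 gene and 1 member (Gm5415), 1 fit of all 8 libraries with 3 genes and 2 members, and the replicate block with 194 genes and 6 members. Leaving out 1 library gave 11 to 7278 genes and 1 to 9 members. The cause of these differences was not tested. Under the replicate block Arf5 stood at 3.51 (edgeR adjusted p = 0.0216) and was among the members called. The labels do not say whether same-numbered libraries share a lysate. Deviations of same-numbered IP and testis libraries from their group means correlated over genes at -0.137 in hom and 0.0298 in het mice, with 2 libraries a group, so they were not treated as pairs.

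Of the members' log2 ratios in that comparison, only that of C130060K24Rik changed direction under any alternative, at -0.39 without het testis replicate 1 and -0.026 without het IP replicate 2, and it ranged from -0.39 to 1.11 when 1 library was left out. In hom IP over hom testis and in hom IP over het IP no alternative run changed a member's sign. In hom testis over het testis Chgb turned to 0.54 with library totals and 0.34 within the same replicate number (replicate block). Leaving out 1 library gave -0.83 to 1.498 for Chgb, including 0.12 without hom testis replicate 1, and -3.38 to 2.67 for Arf5. Library totals moved the median of all genes by 0.37 in het IP over het testis, -0.45 in hom IP over hom testis, -0.27 in hom IP over het IP and 0.49 in hom testis over het testis. Arf5 had as few as 1 read in a testis library, so its ratios over testis rest on few counts there.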

Other observations

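Of the 8 entries that ranked among the members by hom IP over hom testis without being members, chosen here after their values were seen, some followed the pattern of the Senp-like genes and others that of the rest. Kcnu1, a potassium channel of sperm, had mean levels of 1467 CPM in hom IP and 1531 CPM in het IP, with ratios over testis of 21.1 in hom and 14.3 in het mice. Fam160b2 had 6663 CPM in hom IP and 793.6 CPM in het IP, with ratios over testis of 28.8 in hom and 2.02 in het mice. 2900006K08Rik had 9337 CPM in hom IP and 2038 CPM in het IP, with ratios of 19.96 in hom and 1.73 in het mice. No test is given for these values, since the entries were picked by hom IP levels.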
